A study of Mus musculus with 2 samples.

Results

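Arachidonic acid is held in membrane phospholipids, and phospholipases A2 free it for the cyclooxygenases, which make prostaglandins, and for the lipoxygenases, which make leukotrienes and related lipids. Prostaglandins act outside the cell that made them, and their action ends when a transporter carries them into a cell where a dehydrogenase oxidises them. The genes described here are those of release, of the lipoxygenase branch and of removal: the phospholipases Pla2g4a, Pla2g5, Pla2g6, Pla2g7 and Pla2g16, the lipoxygenase genes Alox5 and Alox5ap, and the clearance genes Hpgd, Slco2a1 and Abcc4. These 10 genes, of 20658 named genes on the array, were listed by name for their roles, and all of their 13 probes, of 55681 probes that are not controls, were taken by RefSeq accession. In the ovary, prostaglandins are known for their part in ovulation and in the regression of the corpus luteum, and the study asked which genes respond to tachykinins (TKs) during early follicle growth.

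Ovaries of 2-week-old mice were cut lengthwise and cultured for 3 days. In the one group TKR agonists were added, namely [Sar9,Met(O2)11]-SP for the tachykinin receptor TACR1, GR-64349 for TACR2 and a succinylated analogue of a substance P fragment for TACR3, and in the other TKR antagonists, namely L-703,606, GR-94800 and SB218795 in the same order, each ligand at 1 μM. Genotype, strain and the number of ovaries behind each RNA are not given in the labels. The study's text has all 3 antagonists given to the antagonist group and does not say whether the agonists were combined. The series holds no array of ovaries without a ligand. A rise with the agonists and a fall with the antagonists therefore cannot be told apart, and "higher with the agonists" means relative to the antagonist array only. Each group has 1 single-colour array and no replicate. The precision is limited by this number of arrays, and no test could be made. Values are compared as log2 ratios, the agonist value minus the antagonist value, after the signal of each array was divided by its 75th percentile (672 with agonists, 569 with antagonists, in signal units), so 1 stands for a 2-fold difference. Each error (±) is that of the spots on the arrays by the image analysis software, and not the spread between ovaries. For bright probes this error was close to 0.20 in log2 ratio, above the median SD of 0.07 between repeated spots of a probe. A difference within the software's error can thus still exceed the spread between spots. Granulosa and oocyte markers were measured well above background, by the software's criterion, on both arrays (9 of 9 and 11 of 11 genes).

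The promoters of Pla2g5, Pla2g7 and Slco2a1 are printed here because these were among the 4 genes higher by over 2-fold with the agonists, and that of Hpgd is set beside Slco2a1 as the enzyme that acts after it and that was nearly level. Each window holds 250 bases before the transcript start and 50 after it, from RefSeq on build GRCm38.p6, written 5′ to 3′ on the strand of the gene. Capitals mark matches on both strands to GAGGAA, which holds the GGAA core of ETS family sites, and to TTCNNNGAA, the consensus of STAT sites. They also mark TGANTCA, a looser form of the AP-1 consensus, on both strands, and TATAAA on the strand of the gene. No capital run in these windows comes from an overlap of motifs.
Pla2g5, upstream start, chr4:138863420-138863719, minus strand: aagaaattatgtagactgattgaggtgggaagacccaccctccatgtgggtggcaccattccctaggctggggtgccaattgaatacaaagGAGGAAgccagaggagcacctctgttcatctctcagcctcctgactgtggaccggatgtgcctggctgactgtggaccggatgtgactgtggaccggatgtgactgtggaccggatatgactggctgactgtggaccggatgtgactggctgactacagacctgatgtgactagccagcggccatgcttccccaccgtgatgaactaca
Pla2g5, downstream start, chr4:138819208-138819507, minus strand: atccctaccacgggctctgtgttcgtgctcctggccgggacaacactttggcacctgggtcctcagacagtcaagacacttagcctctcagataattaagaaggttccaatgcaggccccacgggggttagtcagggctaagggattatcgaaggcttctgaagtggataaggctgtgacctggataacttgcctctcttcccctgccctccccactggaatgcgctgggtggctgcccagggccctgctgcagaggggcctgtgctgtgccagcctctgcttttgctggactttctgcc
Pla2g7, chr17:43568201-43568500, plus strand: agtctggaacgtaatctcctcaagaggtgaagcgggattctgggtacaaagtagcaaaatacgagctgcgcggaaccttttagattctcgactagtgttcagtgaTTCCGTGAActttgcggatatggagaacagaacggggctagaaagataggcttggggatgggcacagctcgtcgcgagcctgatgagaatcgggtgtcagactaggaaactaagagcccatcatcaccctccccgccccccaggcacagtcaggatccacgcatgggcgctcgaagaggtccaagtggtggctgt
Slco2a1, chr9:103008237-103008536, plus strand: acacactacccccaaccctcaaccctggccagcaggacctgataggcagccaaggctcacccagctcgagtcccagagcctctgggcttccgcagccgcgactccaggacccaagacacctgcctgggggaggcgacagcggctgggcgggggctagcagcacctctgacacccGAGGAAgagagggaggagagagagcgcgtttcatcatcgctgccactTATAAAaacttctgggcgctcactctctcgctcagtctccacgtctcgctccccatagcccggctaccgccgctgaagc
Hpgd, chr8:56294302-56294601, plus strand: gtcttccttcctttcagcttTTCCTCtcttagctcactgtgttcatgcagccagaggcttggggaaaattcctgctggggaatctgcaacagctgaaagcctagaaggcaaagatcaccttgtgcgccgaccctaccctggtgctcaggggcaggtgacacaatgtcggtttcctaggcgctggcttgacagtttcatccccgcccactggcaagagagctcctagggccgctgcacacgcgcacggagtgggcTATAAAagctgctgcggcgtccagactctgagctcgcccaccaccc

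Of the 10 genes, 9 had an entry, with 13 windows, and Alox5ap had none. GAGGAA was found in 4 of the 13 windows, 1 each of Pla2g5, Hpgd, Slco2a1 and Alox5, against 28.3% of 32841 promoters of the same length. TTCNNNGAA was found in those of Pla2g7, between bases -145 and -137 from the start, and of Abcc4, against 8.3% of promoters. TATAAA was found in Slco2a1, between bases -29 and -24, and in Hpgd, between bases 5 and 10 after the annotated start, against 8.32%. TGANTCA was found as TGATTCA in both overlapping windows of Pla2g16, against 7.81%. The strict AP-1 consensus has C or G as its middle base, and TGATTCA does not. Genes that differed by over 2-fold and genes that did not are both among those with GAGGAA, with TTCNNNGAA and with TATAAA. A match is a run of letters and not a bound site, and the array gives no measure of binding.

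The secreted and plasma phospholipases, the activator of leukotriene synthesis and the prostaglandin transporter were higher with the agonists, whereas the cytosolic and membrane phospholipases, the prostaglandin dehydrogenase and the exporter were within 1.5-fold. Of the 10 genes, 9 were well above background on both arrays. The agonist value was at least 2-fold the antagonist value for 4 of the 9 (Pla2g7, Pla2g5, Slco2a1 and Alox5ap), as for 4.01% of the 15258 genes measured in the same way over the whole array. The list was drawn up with earlier results of these data known, so such shares are set side by side as a description only. It was lower by 2-fold or more for 0 of the 9 and for 0.577% of all genes. At 1.5-fold the counts stayed at 4 higher and 0 lower, beside 9.26% and 4.28% of all genes. A log2 ratio above 0 was found for 7 of the 9 and for 37.7% of all genes. Counted by probe, 5 of 11 were at least 2-fold higher and 0 lower, beside 2.69% and 0.705% of all probes measured on both arrays. The median log2 ratio of the 9 genes was 0.19, beside a median of -0.10 with an SD of 0.48 over the 15258 genes. No gene lay between 0.19 and 1.18, so the 9 genes fell into a group of 4 and a group of 5 with a gap between them. These are the values of a pair of arrays, and fewer cells of a type and less RNA per cell cannot be told apart in them.

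**Figure D1:**
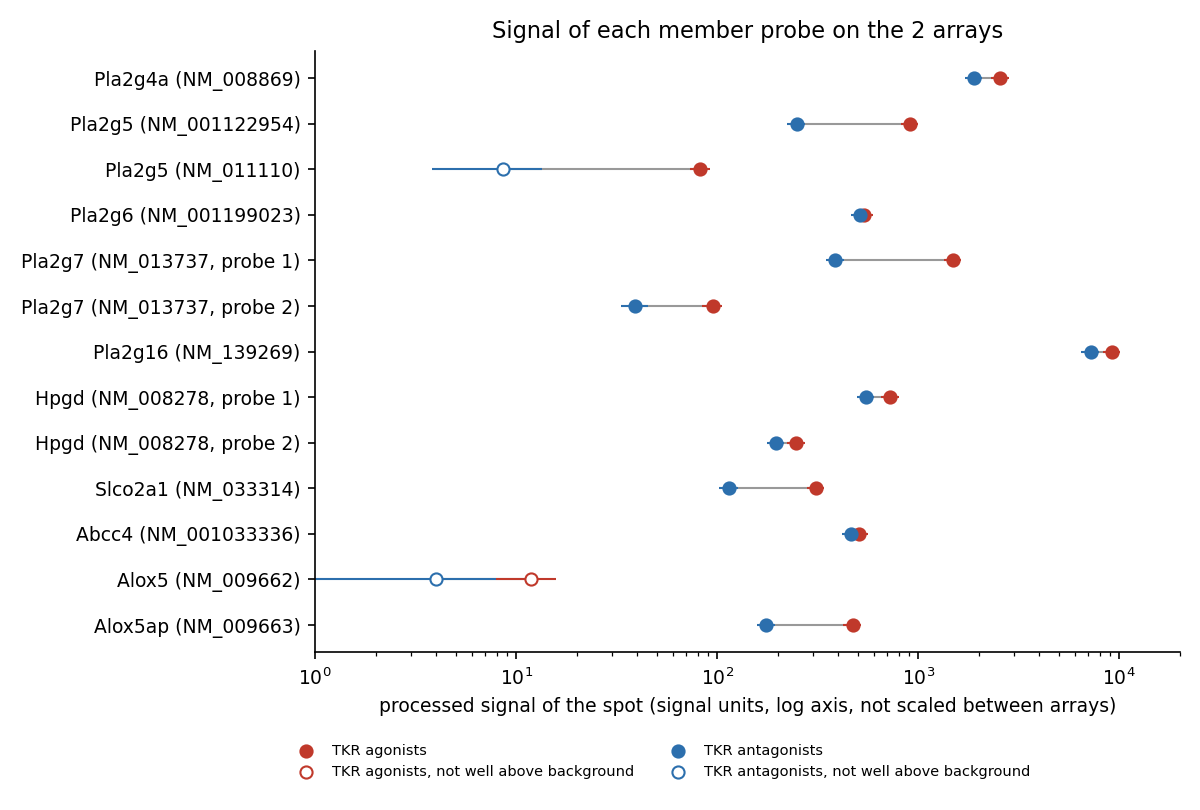
Processed signal of each of the 13 probes on the agonist array (red) and the antagonist array (blue), on a log axis in signal units without scaling between arrays; bars are the software's error of the spot, cut at 1 signal unit, and open circles are spots not well above background. The red points of Pla2g5, Pla2g7, Slco2a1 and Alox5ap stand well to the right of the blue ones, those of the other detected probes lie close to them, and both Alox5 spots are open.

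Among the phospholipases, Pla2g4a encodes cytosolic phospholipase A2 alpha, the calcium-activated enzyme that prefers arachidonic acid and is held to supply most of it for prostaglandin synthesis. Its probe for NM_008869 gave a signal of 2565 ± 257 with the agonists and 1895 ± 190 with the antagonists. After scaling the log2 ratio was 0.19 ± 0.20, a difference of less than the error of the spots. Of all genes well above background, 22.0% had a log2 ratio at least as high.

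Pla2g6 encodes a calcium-independent phospholipase that takes part in membrane remodelling. The agonist array gave 539 ± 54.1 and the antagonist array 513 ± 51.5, or a log2 ratio of -0.17 ± 0.20, which became 0.11 with scaling on spike-in controls and 0.07 with no scaling. Pla2g16, now named Plaat3, encodes a phospholipase and acyltransferase abundant in fat, where it limits the breakdown of stored fat. Its probe read 9218 ± 922 with the agonists and 7207 ± 721 with the antagonists, or a log2 ratio of 0.11 ± 0.20. With the 75th percentile scaling the differences of Pla2g4a, Pla2g6 and Pla2g16, though above 0.07, the SD between repeated spots, were within the software's error. Without scaling and with spike-in probes as the scale, Pla2g4a gave 0.44 and 0.47, and Pla2g16 gave 0.36 and 0.39, which exceed that error.

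Pla2g5 encodes a small secreted phospholipase A2 of group V, which acts on membranes from outside the cell and is made by macrophages and other cells. It was measured by probes for a pair of transcripts, and its promoter table lists the upstream and the downstream start printed above. The files do not say which start belongs to which transcript. The probe for NM_001122954 gave 911 ± 91.2 with the agonists and 249 ± 25.2 with the antagonists, or a log2 ratio of 1.63 ± 0.21, or 3.10-fold. The probe for NM_011110 was well above background on the agonist array only, with 82.6 ± 9.44, against 8.64 ± 4.81 on the antagonist array. Its difference therefore has only a lower bound, set against the dimmest antagonist signal still well above background, 19.9 signal units. By this bound the agonist value of NM_011110 was higher by at least 3.51-fold. The bound is not a strict minimum, since a brighter spot of that array, 22.6 for Dpep1, was not well above background either. With the normexp background correction the plain ratio of NM_011110 was 1.52-fold, a log2 ratio of 0.60, less than the error of 0.82 of its spots. Both probes were thus higher with the agonists, and of the 2874 probes well above background on the agonist array only, 9.6% had a bound of at least 2-fold. Of all genes, 1.29% had a log2 ratio at least as high as the probe for NM_001122954.

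Pla2g7 encodes the platelet-activating factor acetylhydrolase of plasma, a phospholipase that removes platelet-activating factor and short oxidised chains rather than arachidonic acid and that is made largely by macrophages. A pair of probes read the same transcript, NM_013737. The first gave 1485 ± 149 with the agonists and 387 ± 39.0 with the antagonists, or a log2 ratio of 1.70 ± 0.20, or 3.24-fold. The other gave 94.8 ± 10.4 and 39.2 ± 5.92, or a log2 ratio of 1.03 ± 0.27, or 2.04-fold. Both probes were higher with the agonists, but their log2 ratios differed by 0.67, more than the error of 0.34 for that difference. With the normexp background correction the first gave 1.52 and the other 0.30. With scaling on the median and with quantile normalization the other gave 0.98 and 0.99, just under the 2-fold line. Of all genes, 1.19% had a log2 ratio at least as high as the first probe.

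**Figure D2:**
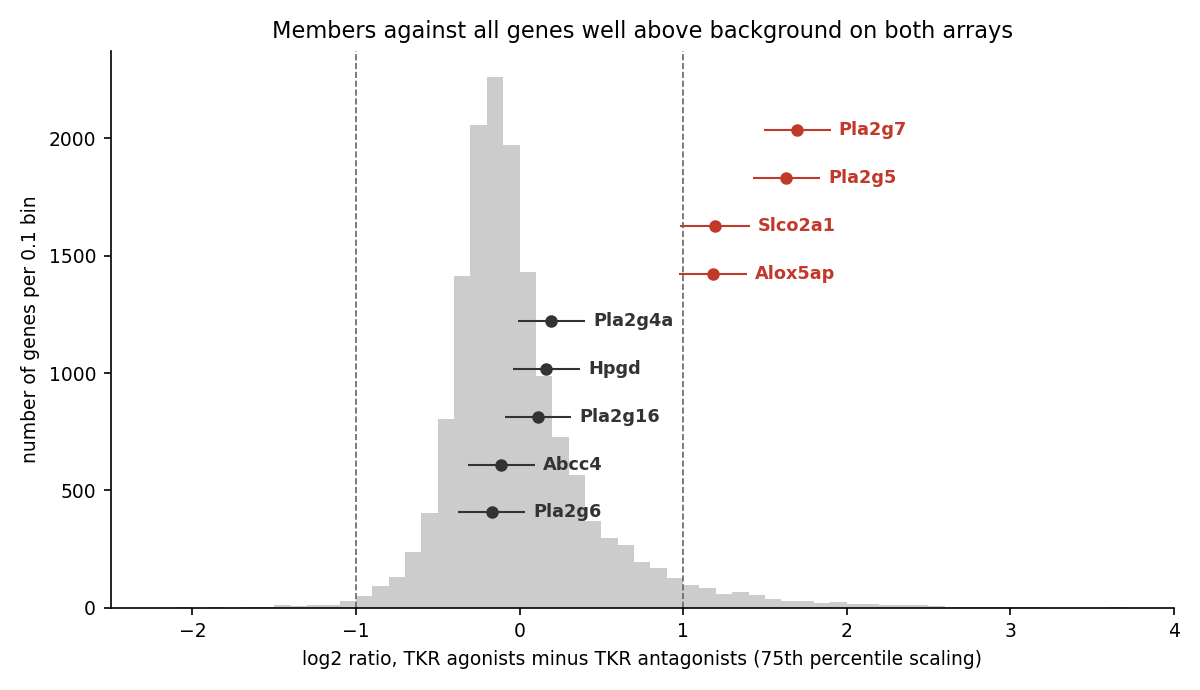
Log2 ratio of the 9 genes well above background on both arrays (points, with the software's error of the spots as bars) over a histogram of the 15258 genes measured in the same way; the height of a point has no meaning and dashed lines mark a 2-fold difference. Pla2g7, Pla2g5, Slco2a1 and Alox5ap (red) lie to the right of 1, between 1.18 and 1.70, and the other 5 between -0.17 and 0.19.

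In the lipoxygenase branch, Alox5 encodes arachidonate lipoxygenase 5, the enzyme that starts leukotriene synthesis, and Alox5ap encodes the membrane protein FLAP, which presents arachidonic acid to it. Both are known chiefly from myeloid cells. Alox5ap gave 472 ± 47.4 with the agonists and 176 ± 18.1 with the antagonists by its probe for NM_009663. The log2 ratio was 1.18 ± 0.21, or 2.27-fold, and 2.94% of all genes were at least as high. With the normexp correction it was 0.86, under the 2-fold line.

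Alox5 was not well above background on either array. Its signal by the probe for NM_009662 was 11.9 ± 3.93 with the agonists, which the software marked as positive and distinct from its surroundings, and 3.97 ± 3.98 with the antagonists, without that mark. Before background correction the spot read 57.5 with the agonists against a local background of 37, and 49.5 with the antagonists against 42. No fold is given, because the transcript was well above background on neither array. The FLAP transcript was thus measured on both arrays, and that of the enzyme it serves on neither.

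Among the clearance genes, Slco2a1 encodes the prostaglandin transporter, which takes PGE2 and PGF2α up into cells and is known from endothelium, lung and uterus. Its probe for NM_033314 gave 309.8 ± 31.3 with the agonists and 114 ± 12.3 with the antagonists. The log2 ratio was 1.20 ± 0.21, or 2.29-fold, and 2.83% of all genes were at least as high. With the normexp correction it was 0.68, under the 2-fold line.

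Hpgd encodes the NAD-dependent dehydrogenase that inactivates prostaglandins once they are inside the cell. A pair of probes read its transcript NM_008278. The first gave 727 ± 72.8 with the agonists and 549 ± 55.0 with the antagonists, or a log2 ratio of 0.16 ± 0.20. The other gave 248 ± 25.1 and 196 ± 20.1, or a log2 ratio of 0.10 ± 0.21. The log2 ratios of the pair differed by 0.07, less than the error of 0.29 for that difference. Both lay within the error of their spots with the 75th percentile scaling, whereas the first probe gave 0.41 unscaled and 0.44 with spike-in scaling.

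Abcc4 encodes MRP4, a pump that exports PGE2 and cyclic nucleotides from the cell. The probe for NM_001033336 read 508 ± 51.0 with the agonists and 465 ± 46.7 with the antagonists. The log2 ratio was -0.11 ± 0.20, which became 0.16 with scaling on spike-in controls and 0.13 with no scaling. Relative to the median of all genes, which is free of the choice of a constant for each array, Abcc4 lay at -0.02, Pla2g6 at -0.07, Pla2g16 at 0.21, Hpgd at 0.26 and Pla2g4a at 0.29. On the same measure Alox5ap lay at 1.28, Slco2a1 at 1.29, Pla2g5 at 1.73 and Pla2g7 at 1.79.

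**Figure D3:**
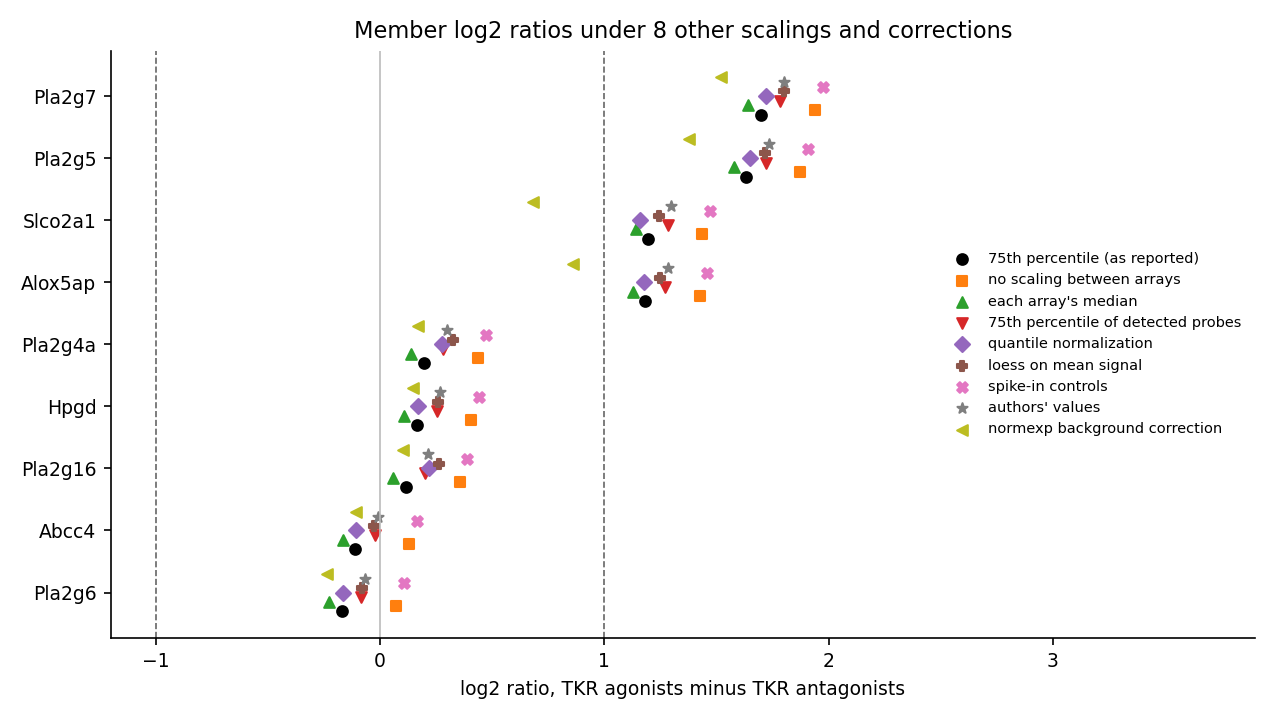
Log2 ratio of the 9 genes, each by its probe with the highest mean signal, with the 75th percentile scaling (black) and under 8 other scalings and background corrections (coloured symbols); dashed lines mark a 2-fold difference. Pla2g7 and Pla2g5 stay to the right of 1 in each of the 9 settings, Slco2a1 and Alox5ap drop to 0.68 and 0.86 with normexp, and Pla2g6 and Abcc4 cross 0 with spike-in scaling and with no scaling.

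The wider pathway was described with 5 lists of 74 other genes, of which 57 were well above background on both arrays. Among these, 7 were higher by 2-fold or more (12.3%, beside 4.01% of all genes), 0 were lower by as much, and the median log2 ratio was 0.08. The highest log2 ratios belonged to Slco2b1, Mgst2 and Mgll. The antagonist signals of Slco2b1 (27.1) and Pla2g4e (25.9) were near the lowest signal well above background on that array, 19.9. With normexp, 3 of the pathway genes were at least 2-fold higher, beside 2.12% of all genes.

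Of 22 other phospholipases A2 and related hydrolases, 19 were measured on both arrays, 2 were at least 2-fold higher and the median was 0.15. Pla2g2d, a secreted phospholipase A2 known from lymphoid tissue, gave 151 with the agonists and 48.7 with the antagonists, or a log2 ratio of 1.39 ± 0.25. Another probe of Pla2g2d was well above background with the agonists only and, by the same kind of bound, at least 3.08-fold higher. Pla2g4e, a cytosolic phospholipase with acyltransferase activity, gave 63.5 and 25.9, or a log2 ratio of 1.05 ± 0.34. Pla2g4b, a cytosolic phospholipase of the same family as Pla2g4a, gave 14670 and 13829, or a log2 ratio of -0.16 ± 0.20.

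Of 18 genes of arachidonate re-esterification and of other routes to it, 16 were measured on both arrays, 1 was at least 2-fold higher and the median was -0.13. That gene was Mgll, monoacylglycerol lipase, which frees arachidonic acid from the endocannabinoid 2-arachidonoylglycerol. Its probe gave 5012 with the agonists and 1231 with the antagonists, or a log2 ratio of 1.78 ± 0.20. Another probe of the same transcript, NM_001166251, gave 1.75 ± 0.20, a probe for NM_001166250 gave 1.27 ± 0.21, and a further probe for NM_001166250 was not well above background on either array. Anxa1, annexin A1, a glucocorticoid-induced inhibitor of phospholipase A2 activity, gave 12051 and 5528, or a log2 ratio of 0.88 ± 0.20, and 0.80 ± 0.20 by another probe.

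Of 17 other genes of lipoxygenases and leukotriene enzymes, 11 were measured on both arrays, 2 were at least 2-fold higher and the median was 0.26. Mgst2, a microsomal glutathione transferase that can make leukotriene C4, gave 1982 with the agonists and 294 with the antagonists, or a log2 ratio of 2.51 ± 0.21. Ephx2, the soluble epoxide hydrolase, was on this list although it is neither a lipoxygenase nor an enzyme of leukotriene synthesis. It gave 9285 and 3852, or a log2 ratio of 1.03 ± 0.20. Dpep1, a dipeptidase that turns leukotriene D4 into E4, gave 402 with the agonists. With the antagonists it gave 22.6, from a spot that was not well above background. The plain ratio of Dpep1 was 15.0-fold, a log2 ratio of 3.91 ± 0.35. That ratio stood in place of its bound, because 22.6 exceeds the 19.9 signal units used for bounds. For Dpep1, 15.0-fold is therefore not a minimum. Of 845 genes well above background on the agonist array only, 14.4% had a bound of at least 2-fold. Ltc4s, the leukotriene C4 synthase, gave 4416 and 2501, or a log2 ratio of 0.58 ± 0.20, and Lta4h, which makes leukotriene B4, gave 3421 and 3011, or a log2 ratio of -0.06 ± 0.20. The lipoxygenases Alox15 and Alox8 were not well above background on either array, as for Alox5, and Alox12 gave 0.82 ± 0.22.

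Of 7 receptors for leukotrienes, lipoxin and platelet-activating factor, 2 were measured on both arrays, both under 2-fold. Cysltr1, a receptor for cysteinyl leukotrienes, gave 77.7 with the agonists and 38.8 with the antagonists, or a log2 ratio of 0.76 ± 0.27. Another probe of Cysltr1 was well above background with the agonists only, at 23.3 against 4.65, and its bound was a log2 ratio of -0.01. Ltb4r1, the high-affinity receptor for leukotriene B4, gave 55.0 and 25.6, or a log2 ratio of 0.86 ± 0.34. These signals were low, and 5 of the 7 receptors were not well above background on at least 1 array.

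Of 10 other prostaglandin reductases and transporters, 9 were measured on both arrays, 2 were at least 2-fold higher and the median was 0.08. Slco2b1, an organic anion transporter of the same family as Slco2a1, gave 318 with the agonists and 27.1 with the antagonists, or a log2 ratio of 3.31 ± 0.31. Another probe of Slco2b1 was well above background with the agonists only and, by the same kind of bound, at least 6.18-fold higher. Slco4a1, a further member of that family, gave 428 and 163, or a log2 ratio of 1.15 ± 0.21. The reductases that follow Hpgd, Ptgr1 and Ptgr2, gave -0.22 ± 0.20 and 0.29 ± 0.20. Akr1b3, an aldose reductase that can form PGF2α, gave -0.08 ± 0.20, and 0.09 ± 0.20 by another probe. Slco3a1, the remaining Slco transporter of the list, gave 4349 and 4255, or a log2 ratio of -0.21 ± 0.20, so the family did not move as one.

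**Figure D4:**
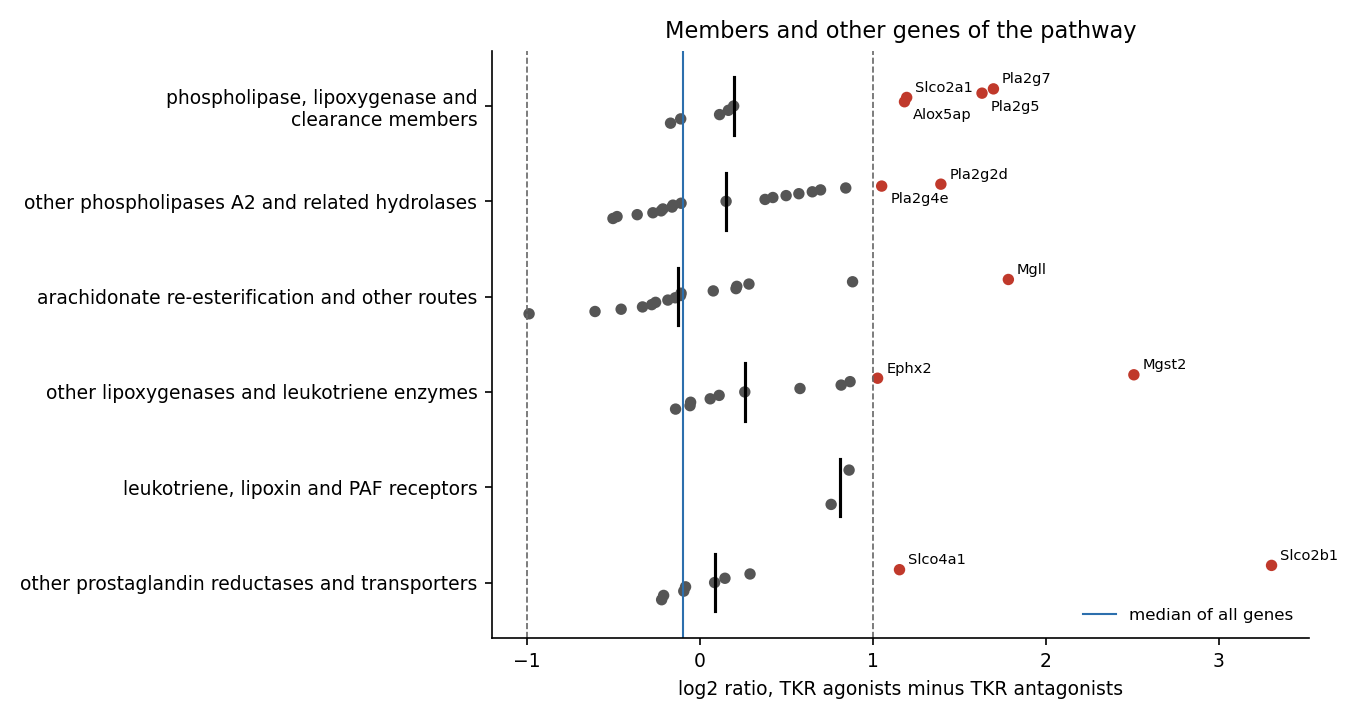
Log2 ratio of each gene well above background on both arrays, for the 9 phospholipase, lipoxygenase and clearance genes and for 5 lists of other genes of the pathway; black bars are medians, the blue line is the median of all genes (-0.10), dashed lines mark a 2-fold difference and genes at least 2-fold higher are red and named. Points to the right of 1 occur in each row but that of the receptors, and 0 points lie to the left of -1.

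Markers of several cell types moved in the same direction as Pla2g5, Pla2g7, Alox5ap and Slco2a1. As shares to set beside their counts, 37.7% of all genes measured on both arrays were above 0 and 4.01% were at least 2-fold higher. Of 13 macrophage markers, 12 had a probe, 10 were measured on both arrays, all 10 of these were above 0 and 5 were at least 2-fold higher, with log2 ratios between 0.15 (Csf1r) and 1.84 (Aif1) and a median of 0.96. The signals of all 12 summed to 20952 with the agonists and to 11082 with the antagonists, 1.60-fold higher after scaling, and Cd163 was not well above background on either array. Of 10 endothelial markers, 9 were measured on both arrays and 2 were at least 2-fold higher, with log2 ratios between -0.27 (Kdr) and 2.49 (Vwf), a median of 0.88 and a summed signal 1.19-fold higher. The 7 measured surface epithelium markers had a median of 1.03 and a summed signal 2.20-fold higher, and the 5 smooth muscle markers measured on both arrays had a median of 0.81 and a summed signal 1.65-fold higher. The 9 granulosa markers had a median of -0.67 and a summed signal of 0.691 of that with the antagonists. Their log2 ratios lay between -1.17 (Inhbb) and 0.37 (Cyp19a1). Of these 9, 2 were above 0 and 1 was lower by 2-fold or more, beside 0.577% of all genes. The 11 oocyte markers had a median of 0.17. Of the neutrophil markers, 1 of 5 was well above background on both arrays. Of 7 adipocyte markers, 4 were measured on both arrays, with a median of 0.41. Fabp4, a fatty acid binding protein also made by endothelium and macrophages, gave 739 with the agonists and 44.2 with the antagonists, or a log2 ratio of 3.82 ± 0.24. Plin1 gave 0.59, Pparg 0.24 and Lpl -0.07, and Adipoq and Lep were not well above background on either array. Of 6 mast cell markers, 2 were measured on both arrays, Hdc at 1.98 and Tpsb2 at -0.05, and Cpa3, Fcer1a, Cma1 and Mcpt4 were not well above background on either. The medians of the stroma and theca markers were 0.41 and -0.10. The part of these cell types in the values of the 4 genes was not tested.

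**Figure D5:**
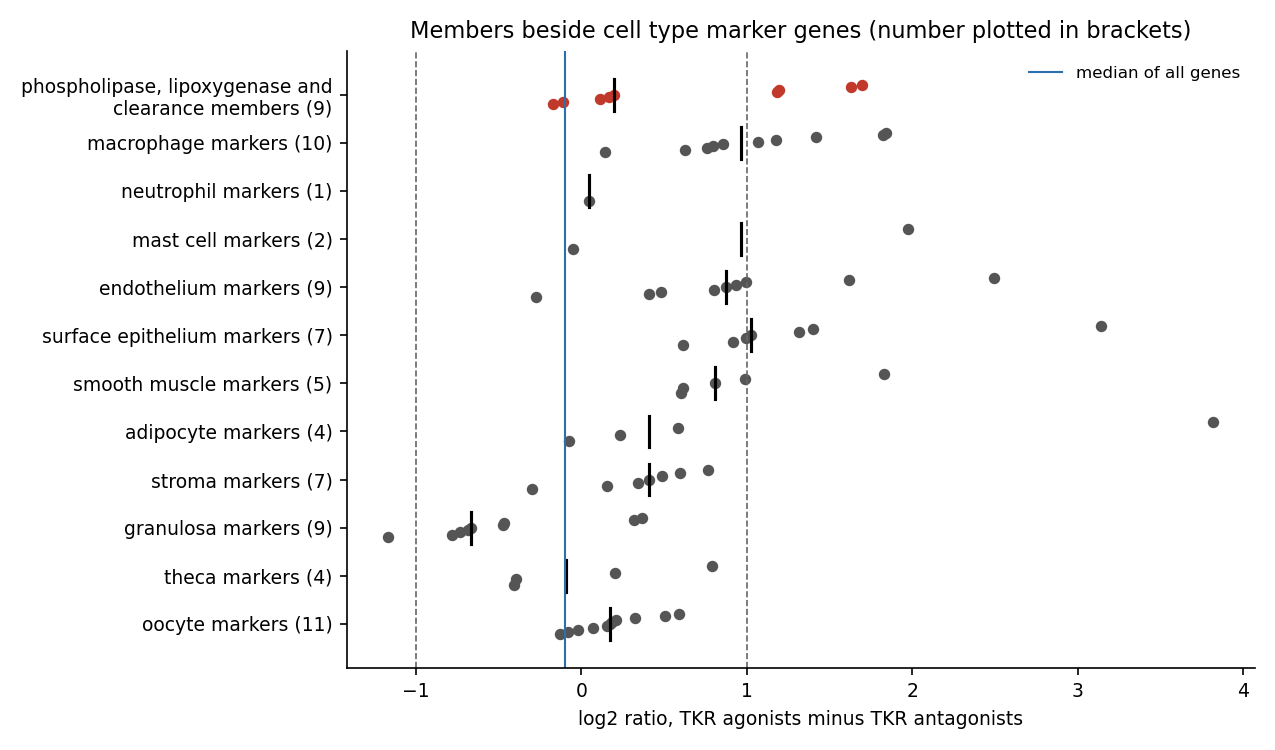
Log2 ratio of the 9 phospholipase, lipoxygenase and clearance genes (red) and of marker genes of 11 cell types (grey), each well above background on both arrays, with the number plotted in brackets; black bars are medians, the blue line is the median of all genes (-0.10) and dashed lines mark a 2-fold difference. The medians of the macrophage, endothelium, surface epithelium and smooth muscle rows lie between 0.81 and 1.03, and that of the granulosa row at -0.67.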

How the data were processed

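Each array was hybridised with Cy3-labelled cRNA of cultured ovaries and read, per the submitters' processing notes, with Agilent Feature Extraction 10.10.1.1. The values deposited are linear intensity readings of single spots, corrected for background by that software and not scaled between arrays, together with its marks for spots well above background. The authors' summary table equals this intensity times 1.99 (agonists) and 2.19 (antagonists). The arrays lay on the same slide.

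From these values, each array's 75th percentile was subtracted on the log2 scale. Outlier spots were left out (0 among the 13 probes, each with 1 spot), and repeated spots were averaged. Names came from RefSeq accessions listed for GRCm38, used for names and promoters only, since the array's design used another build. Each gene was represented by its probe with the highest mean signal. The median SD of the log2 ratio between 10 spots of a probe was 0.07, over 161 probes detected at all spots.

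The genes and lists were chosen with earlier results of these data known. Besides the 10 genes, those named are pathway genes at least 2-fold apart or with a bound of at least 2, and the gene with the highest mean signal in each list. Ltc4s, Lta4h, Alox12, Alox15, Alox8, Ltb4r1, Ptgr1, Ptgr2, Slco3a1 and the cell type markers were added after their values were seen, for their known roles. Alternatives were other scalings (none, median, detected probes, quantile, loess, spike-in probes, the authors' values), normexp on the spot medians, other spot and probe averages, other detection filters and a 1.5-fold threshold. The calculation was tested on simulated data. Python 3.11.15, numpy 2.4.6, pandas 2.3.3, R 4.3.3 and limma 3.58.1 were used.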

Additional observations from a re-analysis of the deposited data

How the results depend on the processing

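No paired analysis was possible because each group has 1 array and nothing was tested. The median log2 ratio of the 9 genes, 0.19, was 0.44 with no scaling, 0.47 with scaling on 8 spike-in probes and 0.69 with no filter on dim probes, which adds Alox5. These scalings also moved the median of all genes, by 0.24 and 0.28, and the authors' values moved it by 0.10. The 4 genes at least 2-fold higher became 2 with normexp (offset 50) and 1, of 4 genes left, with bright probes only, and 0 of the 9 were at least 2-fold lower in each alternative run. The 7 pathway genes at least 2-fold higher became 13 with no scaling, 13 with spike-in scaling, 3 with normexp, 3 with bright probes only and 15 at a 1.5-fold threshold. The 0 lower became 1 with scaling on the median, 1 with quantile normalization, 1 with loess (span 0.3) and 2 at 1.5-fold. Over the 15258 genes measured on both arrays, 612 (4.01%) were higher and 88 (0.577%) lower by 2-fold or more. Unscaled signals gave 992 (6.5%) and 39 (0.256%), and spike-in scaling 1054 (6.91%) and 35 (0.229%). Normexp gave 323 (2.12%) and 33 (0.216%). Unfiltered probes gave 1349 (6.53%) and 554 (2.68%) of 20658 genes. Bright probes gave 176 (2.09%) and 19 (0.225%) of 8430. The 1.5-fold threshold gave 1413 (9.26%) and 653 (4.28%). The share lower was 0.747% with scaling on the median, 0.629% with quantile normalization and 0.498% with loess.

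Under the alternatives the 10 genes had 140 values, of single probes or of the mean over a gene's detected probes. Of these, 113 moved by less than the error of their spots and 27 by more. Each probe had 1 spot and 0 outlier flags, so the median over spots and keeping outlier spots could not move any value. Nor could the mean over probes, for genes with at most 1 probe detected on both arrays. These fixed values are among the 113, a count that thus overstates how little the values moved. The 113 include all 11 values of Alox5, whose error was 1.52 and whose sign changed with normexp. They also include 9 of 10 values of the NM_011110 probe of Pla2g5, whose error was 0.82. Of the 5 probes measured on both arrays and at least 2-fold apart, 0 changed sign. As these 5 were picked for large ratios, a scaling that moved the median of all genes by 0.28 could hardly change a sign. For the probe that represents the gene, the lowest value of Pla2g7 was 1.52 and that of Pla2g5 1.38, both with normexp. The mean over both Pla2g7 probes was 1.36. The dimmer Pla2g7 probe gave 0.30 with normexp, 0.98 with scaling on the median and 0.99 with quantile normalization, each under the 2-fold line. Signal over background limits Alox5 and the NM_011110 probe of Pla2g5.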
